A study of Mus musculus with 24 samples.

Results

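The 12 RNA-seq libraries described here, of 24 in the series, asked whether mouse embryonic fibroblasts need an intact glucocorticoid receptor (GR) zinc finger to change a gene's RNA in answer to dexamethasone (Dex), a synthetic glucocorticoid. They were chosen by their labels alone, as the 4 groups without bacterial lipopolysaccharide (LPS), with 3 libraries in each. GR MUT Dex was the homozygous mutant GR Zn/Zn given 1 uM Dex in ethanol for 16 h, and GR MUT CTR was the same genotype given the ethanol vehicle for 16 h. GR WT Dex and GR WT CTR were wild-type fibroblasts given the same Dex and the same vehicle. All came from male C57BL/6 embryos of day 13.5 without head and inner organs, and were grown for 7 days. The labels do not say whether replicates were separate embryos or cultures. P-values therefore rest on the spread of these samples alone, part of which may be technical, and an effect of genotype cannot be told apart from one of the embryo or culture.

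GR is a steroid receptor that waits in the cytoplasm in a chaperone complex and enters the nucleus once hormone binds. The zinc fingers of its DNA-binding domain read a palindromic sequence, the glucocorticoid response element, near genes that it raises. GR also lowers inflammatory genes through other transcription factors such as NF-kB and AP-1, and how far that lowering needs contact of GR itself with DNA is a standing question in the field. Fibroblasts carry ample GR, and Dex is known in them for raising feedback inhibitors, clock genes and contractile genes and for lowering cytokines and prostaglandin synthesis.

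The quantity reported for each gene is the response difference, the log2 change with Dex in GR MUT minus the log2 change with Dex in GR WT. A negative value means that the response was lower in GR MUT, as for a gene raised only in GR WT, and a positive value means that it was higher, as for a gene lowered only in GR WT. Levels are TMM-scaled CPM, read counts relative to library size, and log2 values are given with their standard error. A gene was called at an adjusted p below 0.05 in edgeR's quasi-likelihood test, with Benjamini-Hochberg adjustment across 15221 tested genes. Levels of different genes are not compared, since CPM is not divided by length.

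The 12 libraries held 19.5 to 53.1 M counted reads. GR MUT CTR replicate 1 was the deepest and stood apart from its group on the second principal component, which carried 20.9% of the variance. Its score was 36.51, against -2.01 and 1.39 in the other GR MUT CTR libraries. GR MUT Dex replicate 1 scored -0.76, against -19.35 and -23.55 in its group. GR WT CTR replicate 3 scored 28, against 17.58 and 17.74. The 5 libraries of the series left out together in some fits are GR MUT CTR replicate 1, GR WT DexLPS replicates 1 and 3, GR MUT LPS replicate 2 and GR MUT DexLPS replicate 2. The 14 fibroblast markers were detected in all 12 libraries and summed to 26300 to 35600 CPM. Leukocyte markers summed to 203 to 228 CPM in GR MUT and 79 to 97 CPM in GR WT. Their part in the results was not tested. Adult liver markers are given beside the liver-type genes below. Nr3c1, the gene of GR itself, averaged 79.5 ± 1.66 CPM in GR MUT Dex, 86.5 ± 1.11 CPM in GR MUT CTR, 58.5 ± 2.19 CPM in GR WT Dex and 89.8 ± 2.94 CPM in GR WT CTR (SD, n = 3 each). Its RNA was thus present in the mutant, and gene counts carry no information on the altered zinc finger. Nr3c1 fell with Dex in GR WT, with a log2 of -0.62 ± 0.13 (adjusted p = 0.00142). Its response difference of 0.50 ± 0.18 was not called (adjusted p = 0.113) but was called when only the 12 libraries were fitted, at 0.49 (adjusted p = 1.02e-05), and without the 5 libraries of the series that stand apart, at 0.50 (adjusted p = 6.54e-09).

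Fkbp5, Per2, Ptgs2 and Nr1d1 mark the comparison. Fkbp5 (ENSMUSG00000024222, GRCm38 chr17:28399094-28517527, minus strand) encodes a co-chaperone that holds GR in a state of low hormone affinity. It had 45.8, 41.3 and 44.9 CPM in GR MUT Dex, 44.6, 44.2 and 45.8 CPM in GR MUT CTR, 309.8, 319 and 293 CPM in GR WT Dex and 39.7, 42 and 42.2 CPM in GR WT CTR. The 3 GR WT Dex libraries stood far above the other 9, and the 2 groups of GR MUT overlapped. The log2 change with Dex was -0.03 ± 0.05 in GR MUT and 2.89 ± 0.06 in GR WT, a response difference of -2.92 ± 0.08 (adjusted p = 6.01e-17). Per2 (ENSMUSG00000055866, chr1:91415982-91459324, minus strand), a repressor of the circadian clock, had 3.8, 4.05 and 3.39 CPM in GR MUT Dex, 3.16, 3.38 and 3.88 CPM in GR MUT CTR, 15.4, 16.5 and 14.8 CPM in GR WT Dex and 2.99, 2.84 and 2.65 CPM in GR WT CTR. Again only the GR WT Dex libraries were high, and the response difference was -2.34 ± 0.16 (adjusted p = 1.83e-09).

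Nr1d1 (ENSMUSG00000020889, chr11:98767932-98775333, minus strand) encodes the clock repressor REV-ERBalpha. It had 27.4, 26.7 and 26.6 CPM in GR MUT Dex, 25.9, 28 and 31.4 CPM in GR MUT CTR, 9.0, 9.54 and 8.77 CPM in GR WT Dex and 25.7, 28.9 and 28.2 CPM in GR WT CTR. All GR WT Dex libraries lay below the other 9, and the response difference was 1.52 ± 0.10 (adjusted p = 1.06e-09). Ptgs2 (ENSMUSG00000032487, chr1:150100031-150108227, plus strand), the inducible cyclooxygenase that makes prostaglandin precursors, had 175, 174 and 172 CPM in GR MUT Dex, 209, 171 and 191 CPM in GR MUT CTR, 132, 126 and 145 CPM in GR WT Dex and 328, 314 and 325 CPM in GR WT CTR. The groups of GR MUT overlapped, while GR WT Dex was the lowest group and GR WT CTR the highest. Its response difference was 1.13 ± 0.18 (adjusted p = 0.000191). The vehicle groups themselves differed for Ptgs2, by a log2 of -0.76 ± 0.13 of GR MUT over GR WT (adjusted p = 0.000121), so the mutant also started from a lower level. For Fkbp5, Per2 and Nr1d1 the vehicle difference was not called (adjusted p = 0.154, 0.158 and 0.997).

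**Figure D1:**
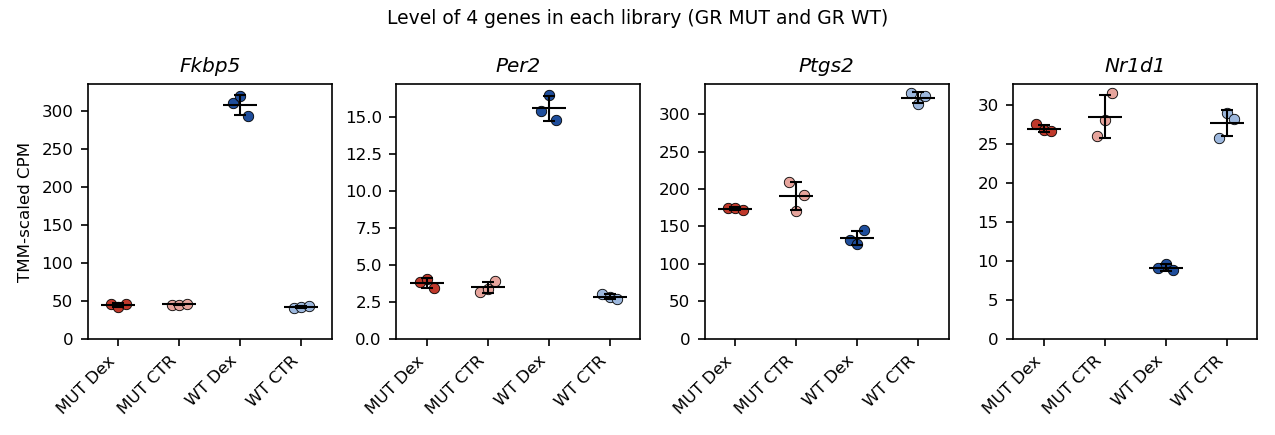
Level of Fkbp5, Per2, Ptgs2 and Nr1d1 in TMM-scaled CPM in each of the 12 libraries. Each point is a library, the long line is the mean and the bars are SD over 3 libraries. GR WT Dex stands above the other groups for Fkbp5 (307 CPM) and Per2 (15.6 CPM) and below them for Nr1d1 (9.1 CPM) and Ptgs2 (134 CPM).

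Across all tested genes, 1064 of 15221 were called in the response difference (6.99%), 669 with a negative value (4.4%) and 395 with a positive one (2.6%). With only the 12 libraries fitted, the numbers were 1007 negative and 652 positive, and without the 5 libraries that stand apart they were 1312 and 879. The response of GR MUT taken alone had 0 calls (0%) by edgeR's quasi-likelihood test, with a smallest adjusted p of 0.14, while DESeq2 called 3. The edgeR test called 3 with only the 12 libraries fitted and 5 without the libraries that stand apart. At an unadjusted p below 0.05 it gave 1109 genes in the full fit. That number was 283 without GR MUT CTR replicate 1 and 2037 without GR MUT CTR replicate 2. The response of GR WT alone had 2003 calls (13.2%), of which 1205 rose (7.92%) and 798 fell (5.24%). Of the 669 negative genes, 653 were called in GR WT, and of the 395 positive genes, 371 were. Both counts use the GR WT libraries on either side and are a description.

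The GR MUT libraries with and without Dex overlapped for most of the called genes, though less often than over all tested genes. The median log2 with Dex over the 669 negative genes was -0.02 in GR MUT and 0.62 in GR WT, and over the 395 positive genes 0.05 in GR MUT and -0.57 in GR WT. Over all tested genes the medians were -0.006 and 0. GR MUT Dex and GR MUT CTR overlapped for 537 of the negative genes (80.3%) and 308 of the positive ones (78%), against 86.6% of all tested genes. The 3 GR WT Dex libraries lay above all 9 others for 553 negative genes (82.7%, against 12.3% of all tested genes) and below them for 261 positive ones (66.1%, against 7.21%). An absolute difference of at least 1 on the log2 scale was reached by 196 negative and 91 positive genes. These genes were called on the same libraries, so the values are a description.

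Whether a wild-type response was shown to differ in the mutant went with its size. Of the 81 genes called in GR WT with an absolute log2 of 2 or more, 62 were called in the difference (76.5%). The share was 66.7% of 291 genes between 1 and 2, 65.6% of 543 between 0.5 and 1, 45.3% of 761 between 0.25 and 0.5, and 20.5% of 327 below 0.25. In each size class the median log2 of GR MUT in the direction of GR WT was between -0.06 and 0.02. A small response that missed the threshold is not shown to be shared by the mutant.

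**Figure D2:**
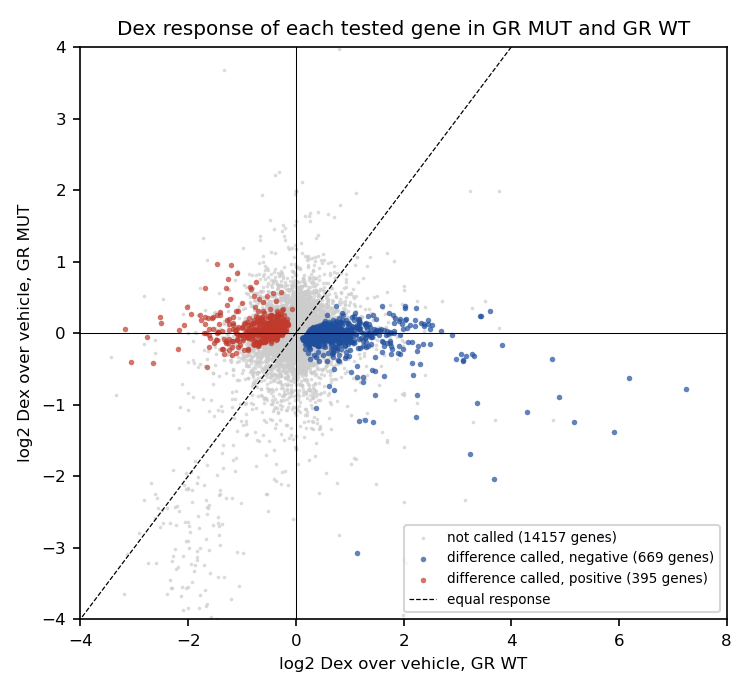
Log2 change with Dex of each tested gene in GR MUT (vertical axis) and GR WT (horizontal axis). Most of the 669 negative and 395 positive calls lie along the horizontal axis, near a GR MUT change of 0, and away from the dashed line of equal response. Of 15221 genes, 30 lie outside the axes.

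Among called protein-coding genes with at least 1 CPM in a group, those nearly silent without Dex had the most negative differences. Genes of this kind reached that level only in GR WT Dex. The size of their differences follows in part from that and is a description. Zbtb16, a zinc finger transcription factor known as a sensitive glucocorticoid target, gave 4, 1 and 1 reads in GR MUT Dex, 5, 7 and 3 reads in GR MUT CTR, 361, 347 and 256 reads in GR WT Dex and 1, 2 and 3 reads in GR WT CTR. Only the GR WT Dex libraries held more than a few reads. The response difference was -8.03 ± 0.90 (adjusted p = 2.73e-06). Fam107a, which encodes a stress-induced actin-binding protein, had 0 reads in all 3 GR MUT Dex libraries, 3 in GR MUT CTR, 781 in GR WT Dex and 15 in GR WT CTR. Taken against a floor of 3 reads over the GR MUT Dex group, its level with Dex was at least 265-fold higher in GR WT. Fam107a was called in the difference (adjusted p = 0.000252).

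Further genes of this kind had few reads outside GR WT Dex. Hif3a, an inhibitory subunit of the hypoxia-inducible factors, had 3 reads in GR MUT Dex, 7 in GR MUT CTR, 607 in GR WT Dex and 8 in GR WT CTR. Lyve1, a hyaluronan receptor, had 3, 11, 264 and 7 reads in the same order of groups. The bile acid and steroid sulfate carrier gene Slc10a6 had 3, 12, 141 and 2 reads, and its ratio of GR WT Dex to GR WT CTR was 70 after scaling for library size, with an exact 95% counting interval of 19 to 584. All 3 were called, with response differences of -6.81, -6.42 and -7.28. Map7d2, a microtubule-associated protein gene, stood on firmer counts, at 0.394, 0.422 and 0.30 CPM in GR MUT Dex, 0.494, 0.333 and 0.591 CPM in GR MUT CTR, 14.3, 13.8 and 14.3 CPM in GR WT Dex and 0.617, 0.655 and 0.289 CPM in GR WT CTR. The GR MUT groups overlapped and the difference was -5.13 ± 0.37 (adjusted p = 2.09e-09). Fhl5, a LIM protein that co-activates CREM, and Ablim3, an actin-binding LIM protein gene, were called at -3.62 ± 0.76 and -3.58 ± 0.50.

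Glucocorticoid feedback and signalling targets were the list with the most calls. Of its 49 members, all tested, 32 had a negative and 4 a positive difference, 34 and 4 without the libraries that stand apart. None was called in GR MUT alone, where the median log2 was 0.03, against 1.05 in GR WT. For this list and the later ones, the shares over all tested genes were 4.4% negative and 2.6% positive. Members and lists were chosen with earlier results of these data known, so the shares called are a description. Without the libraries that stand apart, 1312 genes were negative and 879 positive over all genes tested there. Tsc22d3, which encodes the anti-inflammatory leucine zipper protein GILZ, had 27.5, 30.1 and 25.6 CPM in GR MUT Dex, 27.4, 25.6 and 27.2 CPM in GR MUT CTR, 128, 122 and 126 CPM in GR WT Dex and 23.1, 21.7 and 21.8 CPM in GR WT CTR. The GR MUT groups overlapped, and the difference was -2.45 ± 0.09 (adjusted p = 4.97e-14). The kinase Sgk1, which acts on sodium transport, averaged 105 ± 1.94, 104 ± 3.63, 243 ± 10.1 and 87.3 ± 1.98 CPM in GR MUT Dex, GR MUT CTR, GR WT Dex and GR WT CTR, with a difference of -1.46 ± 0.07. The MAP kinase phosphatases went both ways. Dusp1 rose in GR WT and had a difference of -0.40 ± 0.09 (adjusted p = 0.00849), whereas Dusp4 and Dusp10 fell in GR WT and had differences of 1.01 ± 0.12 and 0.52 ± 0.12. Tsc22d3, Sgk1 and the Dusp genes are named from the list for their known roles, after their values were seen.

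Metallothioneins, small proteins that bind zinc and copper, rose in GR WT with Dex and were not called in GR MUT. Mt2 averaged 34.6 ± 2.14 CPM in GR MUT Dex, 29.9 ± 9.17 CPM in GR MUT CTR, 320.3 ± 14.3 CPM in GR WT Dex and 29.4 ± 0.90 CPM in GR WT CTR. Its difference was -3.21 ± 0.29 (adjusted p = 1.86e-07). The same groups held 60.9, 47.4, 222 and 54.2 CPM of Mt1, with a difference of -1.65 ± 0.32 (adjusted p = 0.00212). Mt1 and Mt2 are similar paralogs, and how the counting split reads between them is uncertain. In GR MUT CTR both were lowest in replicate 1, the library that stands apart, with 31.4, 58.4 and 52.2 CPM of Mt1 and 20.4, 38.7 and 30.6 CPM of Mt2 in replicates 1 to 3. The sodium pump subunit Atp1b1 also rose in GR WT and differed by -1.18 ± 0.08. Of 18 tested genes of zinc, ion and water transport, 6 had a negative and 1 a positive difference, 7 and 2 without the libraries that stand apart.

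The promoters of 788 of the called genes could be read from RefSeq on GRCm38.p6, as 250 bases before to 50 bases after the first listed transcript start. They were searched on both strands for the core of the glucocorticoid response element, which any full element also contains. The core was found in 8 of 525 promoters of negative genes (1.52%), 1 of 263 of positive genes (0.38%), 37 of 11031 of tested genes (0.335%) and 125 of 27025 of all promoters (0.463%). The full element was in 0 promoters of tested genes. A single arm of the element, AGAACA, was in 11.6% of the negative, 10.6% of the positive and 12.3% of the tested promoters. These are matches of letters, without a test, and a core outside the window would not be seen. The windows below show how the letters vary around the fixed ones. Each is given on the gene's strand with the core in capitals, and positions count back from the start.
Slc10a6, chr5:103629544-103629576, minus strand, core at -163 to -151: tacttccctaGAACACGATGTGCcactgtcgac
Mt1, chr8:94178985-94179017, plus strand, core at -94 to -82: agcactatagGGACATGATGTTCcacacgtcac
Serpina3n, chr12:104406620-104406652, plus strand, core at -78 to -66: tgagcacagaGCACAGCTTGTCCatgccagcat
Map3k6, chr4:133240627-133240659, plus strand, core at -181 to -169: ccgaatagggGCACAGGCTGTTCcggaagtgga
Suox, chr10:128673942-128673974, minus strand, core at -46 to -34: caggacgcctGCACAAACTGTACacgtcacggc
Txnip, chr3:96557775-96557807, plus strand, core at -172 to -160: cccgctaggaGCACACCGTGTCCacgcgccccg
Cpxm1, chr2:130397828-130397860, minus strand, core at -221 to -209: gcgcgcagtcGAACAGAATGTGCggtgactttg

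Of the genes with these windows, Cpxm1 alone had a positive difference, 0.48 ± 0.14 (adjusted p = 0.0406). Serpina3n, a serine protease inhibitor of the acute phase, had the most negative difference after Slc10a6, -3.36 ± 0.30, with 1.66, 0.843 and 1.46 CPM in GR MUT Dex, 1.66, 1.43 and 1.69 CPM in GR MUT CTR, 17.5, 16.2 and 16.2 CPM in GR WT Dex and 1.8, 1.97 and 2.15 CPM in GR WT CTR. Suox, the sulfite oxidase, averaged 15.1, 14.8, 43.7 and 15.5 CPM in the same groups, and differed by -1.47 ± 0.09. The MAP kinase kinase kinase gene Map3k6 differed by -0.90 ± 0.16, and Txnip, an inhibitor of thioredoxin and glucose uptake, by -0.42 ± 0.07. Fyb2 and Sptb were the other negative genes with a core, at -1.30 ± 0.34 and -2.58 ± 0.62. They are named for the match and not for the size of their change. Of the 28 tested genes without a call that held a core, the AP-1 subunit gene Jund and the chaperone gene Fkbp7 are examples, with differences of 0.66 ± 0.40 and -0.22 ± 0.09.

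The circadian clock list held repressors that rose and repressors that fell in GR WT. Of 23 tested members, 6 had a negative and 2 a positive difference, against 4.4% and 2.6% of all tested genes. Without the libraries that stand apart they were 7 and 5. Per1, the partner of Per2, had 22.9, 23.9 and 24.1 CPM in GR MUT Dex, 19.1, 25.6 and 23.8 CPM in GR MUT CTR, 92, 89 and 92.5 CPM in GR WT Dex and 20.6, 21.6 and 23.1 CPM in GR WT CTR. GR WT Dex stood above all other libraries, the other groups overlapped, and the difference was -2.0 ± 0.13. Cry1, which represses CLOCK and BMAL1 together with the PER proteins, averaged 12.6, 13.1, 33.2 and 12.6 CPM and differed by -1.45 ± 0.11. Cry2, Ciart and Nfil3 differed by -0.73, -0.80 and -0.77. Nr1d2, the paralog of Nr1d1, averaged 35.8, 38.5, 15.7 and 38.8 CPM and differed by 1.19 ± 0.15 in the opposite direction. Tef and Csnk1e were called in GR WT and not in the difference. Their log2 in GR WT was 0.20 and -0.17.

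Most genes of cholesterol synthesis and uptake rose in GR WT. Of 26 tested genes of cholesterol synthesis and uptake, 13 had a negative difference and 0 a positive one, and 19 rose in GR WT. Without the libraries that stand apart, 21 were negative. Lss, the lanosterol synthase, had 193, 193 and 194 CPM in GR MUT Dex, 179, 188 and 194 CPM in GR MUT CTR, 205, 215 and 205 CPM in GR WT Dex and 134, 135 and 139 CPM in GR WT CTR. The GR MUT groups overlapped with each other and lay between the groups of GR WT. The response difference of Lss was -0.57 ± 0.06 (adjusted p = 2.04e-06), and Pmvk, Msmo1 and Nsdhl, also enzymes of the pathway, differed by -0.54, -0.52 and -0.43. For Mvd, Fdps, Mvk and the sterol sensor gene Scap the response was called in GR WT and the difference was not. Scap differed by -0.41 ± 0.13 (adjusted p = 0.0696), and by -0.53 (adjusted p = 9.25e-07) with the 12 libraries fitted less GR MUT CTR replicate 1.

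Fabp4, the fatty acid binding protein of fat cells, had 3.45, 3.16 and 3.65 CPM in GR MUT Dex, 4.43, 3.9 and 2.83 CPM in GR MUT CTR, 21.3, 21.4 and 19.2 CPM in GR WT Dex and 4.27, 3.23 and 3.56 CPM in GR WT CTR. Its difference was -2.65 ± 0.19, and that of Klf15, a factor of fasting metabolism, was -2.42 ± 0.30. Cebpd, an early adipogenic factor and a known GR target, rose in GR WT by 1.08 ± 0.28 and averaged 6.94 ± 0.871, 5.22 ± 1.76, 9.29 ± 0.208 and 4.38 ± 0.33 CPM in the 4 groups. The GR MUT groups overlapped, and the difference of -0.59 ± 0.40 was not called (adjusted p = 0.551). It was called at -0.91 with the 12 libraries less GR MUT CTR replicate 1 (adjusted p = 8.35e-05). Pdk4, the kinase that turns off pyruvate dehydrogenase, and Glul, the glutamine synthetase, rose in GR WT and had differences of -2.02 ± 0.15 and -1.48 ± 0.08. Angptl4, an inhibitor of lipoprotein lipase that Dex is known to raise in fat and liver, went the other way, with 2.79, 2.77, 1.83 and 3.95 CPM and a difference of 1.11 ± 0.22.

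In the contractile and myofibroblast list, 10 of 34 tested members had a negative and 2 a positive difference, 18 and 6 without the libraries that stand apart. Myocd, the coactivator of serum response factor that drives smooth muscle genes, had 1.05, 1.05 and 1.33 CPM in GR MUT Dex, 1.25, 1.76 and 1.56 CPM in GR MUT CTR, 16.5, 14.7 and 15.6 CPM in GR WT Dex and 1.61, 2.4 and 1.9 CPM in GR WT CTR. The difference was -3.34 ± 0.32 (adjusted p = 1.52e-07). Lmod1, an actin nucleator of smooth muscle, differed by -0.83 ± 0.10, and Itga8, an integrin chain, by -1.03 ± 0.17. Tgfbr3, a co-receptor of TGF-beta, averaged 49.8 CPM in GR MUT Dex, 47.6 CPM in GR MUT CTR, 51.6 CPM in GR WT Dex and 22.7 CPM in GR WT CTR. Here the mutant mean in vehicle was already close to that of GR WT with Dex, and the difference of -1.12 ± 0.13 is a change in GR WT against none called in GR MUT. Acta2, Myh11 and Des rose in GR WT, with log2 values of 0.23, 0.30 and 0.33, and were not called in the difference.

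Extracellular matrix genes had 5 negative and 5 positive differences among 41 tested, and 10 and 7 without the libraries that stand apart. Col11a1, a fibrillar collagen chain, had 336, 326 and 346 CPM in GR MUT Dex, 303, 308 and 333 CPM in GR MUT CTR, 1221, 1231 and 1225 CPM in GR WT Dex and 481, 490.2 and 510 CPM in GR WT CTR, and differed by -1.22 ± 0.10. Has2, the main hyaluronan synthase of fibroblasts, averaged 77, 89.5, 34 and 86.9 CPM and differed by 1.14 ± 0.12. All GR MUT Dex libraries of Has2 also lay below those of GR MUT CTR, with a log2 of -0.22 ± 0.08 that was not called (adjusted p = 0.675). Of 28 tested matrix proteases and inhibitors, 3 were negative and 6 positive, 6 and 7 without the libraries that stand apart, and 3 and 4 or 5 when 1 library was left out. Adamts1, a protease that cuts aggrecan and versican, differed by -1.35 ± 0.09. Plat, the tissue plasminogen activator, had 131, 131 and 124 CPM in GR MUT Dex, 125, 137 and 126 CPM in GR MUT CTR, 56.8, 60.6 and 55.2 CPM in GR WT Dex and 109.6, 112 and 111 CPM in GR WT CTR, and differed by 0.94 ± 0.07. Timp3, an inhibitor of matrix metalloproteinases, differed by 0.67 ± 0.09.

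The most positive differences came from genes that fell in GR WT. Slc15a3, a lysosomal transporter of histidine and peptides, had 4.5, 3.79 and 3.6 CPM in GR MUT Dex, 3.0, 4.14 and 4.01 CPM in GR MUT CTR, 0.683, 0.454 and 0.359 CPM in GR WT Dex and 3.13, 2.4 and 3.18 CPM in GR WT CTR. The GR MUT groups overlapped, and the difference was 2.64 ± 0.32 (adjusted p = 4.12e-06). Heyl, a transcriptional repressor downstream of Notch, had 12.2, 10.8 and 9.82 CPM in GR MUT Dex, 8.76, 10.6 and 8.31 CPM in GR MUT CTR, 1.08, 1.49 and 1.08 CPM in GR WT Dex and 3.94, 3.97 and 4.67 CPM in GR WT CTR. GR WT Dex was below all others and the difference was 2.03 ± 0.20 (adjusted p = 2.33e-07). Fam167a, Sema5b, Prtg, Nptx1 and Unc13c were called between 1.80 and 1.97. Cldn4, a tight junction protein gene, had 10 reads in GR MUT Dex, 9 in GR MUT CTR, 81 in GR WT Dex and 260 in GR WT CTR. It was thus nearly silent in GR MUT already in vehicle, where a fall could hardly be seen. Cldn4 was called at 2.32 ± 0.61. Hsd11b2, the enzyme that inactivates glucocorticoids, had few reads and was called at 1.93 ± 0.49. Without GR MUT CTR replicate 1 neither was called (adjusted p = 0.175 and 0.0616), nor without GR MUT Dex replicate 2 (adjusted p = 0.103 and 0.0675). F2rl2, a thrombin receptor gene, was called at 1.93 ± 0.59 (adjusted p = 0.0467), and leaving out 1 library ended its call in 9 of 12 cases.

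Cytokines, chemokines and their receptors had 12 positive and 5 negative differences among 45 tested, 16 and 5 without the libraries that stand apart. Il11, a cytokine of the IL-6 family, had 2.19, 1.9 and 2.53 CPM in GR MUT Dex, 1.76, 2.09 and 1.9 CPM in GR MUT CTR, 1.45, 0.62 and 0.513 CPM in GR WT Dex and 2.71, 2.62 and 2.44 CPM in GR WT CTR. GR WT Dex was lowest and the difference was 1.77 ± 0.34 (adjusted p = 0.00143). Tnfrsf11b, the decoy receptor osteoprotegerin, averaged 37.8 ± 1.07, 39.9 ± 1.84, 23.2 ± 0.436 and 58.3 ± 1.68 CPM in GR MUT Dex, GR MUT CTR, GR WT Dex and GR WT CTR, and differed by 1.25 ± 0.10. The fractalkine receptor gene Cx3cr1 differed by 1.46 ± 0.27. Ccl4, a chemokine of macrophages, had 73 reads in GR MUT Dex, 104 in GR MUT CTR, 8 in GR WT Dex and 37 in GR WT CTR. Its difference of 2.21 ± 0.58 lost its call without GR WT CTR replicate 1 (adjusted p = 0.0591) and without GR WT Dex replicate 2 (adjusted p = 0.07). Leukocyte markers, with the sums given above, were higher in GR MUT, and Cx3cr1 and Ccl4 are expressed by leukocytes.

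Of 31 tested genes of NF-kB and innate signalling, 2 were negative and 3 positive, 16.1% together against 6.99% of all tested genes. They were 3 and 6 without the libraries that stand apart, and 1 to 3 negative and 1 or 2 positive when 1 library was left out, where Nfkbiz lost its call in 8 of 12 cases. Nfkbia, which encodes the NF-kB inhibitor IkB-alpha, averaged 19.6, 19.6, 29.4 and 18.6 CPM and differed by -0.65 ± 0.14 (adjusted p = 0.00439). Irak3, a brake on Toll-like receptor signalling, differed by -0.61 ± 0.15 and was not called without GR MUT CTR replicate 1 (adjusted p = 0.0746). In the prostaglandin pathway, 2 of 20 tested genes were negative and 3 positive. Anxa1, the phospholipase inhibitor annexin A1, averaged 1089, 1178, 1853 and 1197 CPM and differed by -0.74 ± 0.08. Ptger4, a receptor for prostaglandin E2, differed by 0.91 ± 0.14, in the same direction as Ptgs2. Ephx2, an epoxide hydrolase of fatty acids, differed by -1.92 ± 0.30.

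In the AP-1 and immediate early list 0 of the 20 tested members had a negative and 6 a positive difference, and its median log2 with Dex was 0.19 in GR MUT and -0.22 in GR WT. Over all tested genes these medians were -0.006 and 0. Egr2, a zinc finger factor of growth signalling, had 14.8, 16 and 12.7 CPM in GR MUT Dex, 10.9, 12 and 12.2 CPM in GR MUT CTR, 6.59, 8.47 and 6.51 CPM in GR WT Dex and 12.3, 12.1 and 10.9 CPM in GR WT CTR. The Dex libraries lay above the vehicle libraries in GR MUT and below them in GR WT, without overlap in either. Its difference was 1.02 ± 0.14 (adjusted p = 2.88e-05), while the mutant's own log2 of 0.31 ± 0.10 was not called (adjusted p = 0.675). Jun, a subunit of AP-1, had 90.6, 87.8 and 98.7 CPM in GR MUT Dex, 60.9, 83.4 and 83.9 CPM in GR MUT CTR, 58.6, 56.9 and 54.6 CPM in GR WT Dex and 68.3, 71.6 and 73.2 CPM in GR WT CTR. It showed the same opposed order, and the lowest of the GR MUT CTR values was that of replicate 1, the library that stands apart. Jun differed by 0.61 ± 0.16 (adjusted p = 0.0165), and Egr3 by 1.72 ± 0.30. Nr4a2 and Nr4a3 fell in GR WT, with log2 values of -0.59 and -0.97, and were not called in the difference.

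**Figure D3:**
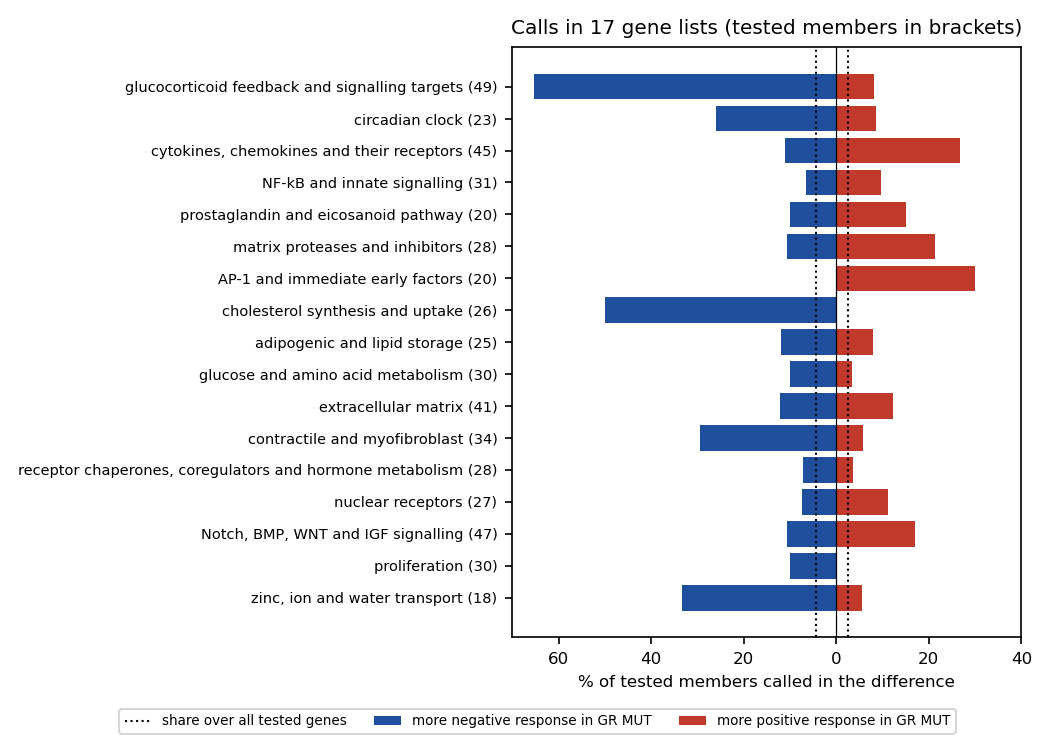
Share of the tested members of 17 gene lists that were called in the response difference, in percent, with negative differences to the left and positive ones to the right. The dotted lines mark the shares over all tested genes, 4.4% and 2.6%. Glucocorticoid targets (32 of 49) and cholesterol genes (13 of 26) extend furthest to the left, AP-1 factors (6 of 20) and cytokines (12 of 45) furthest to the right. The lists were chosen with earlier results of these data known, so the shares are a description.

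Other receptors and signalling genes differed one by one. Thrb, a thyroid hormone receptor, averaged 1.16, 1.33, 5.13 and 1.64 CPM in the 4 groups and differed by -1.83 ± 0.37. The vitamin D receptor gene Vdr differed by -0.53 ± 0.09, and in vehicle it was higher in GR MUT by 1.27 ± 0.07 (adjusted p = 4.09e-12). Esr1, the estrogen receptor, fell in GR WT and differed by 1.41 ± 0.38, a call that ended in 5 of 12 cases when 1 library was left out, with adjusted p up to 0.0728. Of 47 tested genes of Notch, BMP, WNT and IGF signalling, 5 were negative and 8 positive. They were 7 and 13 without the libraries that stand apart, and as few as 2 and 7 without GR WT CTR replicate 1 and 2 and 5 without GR WT Dex replicate 2. The WNT inhibitor Dkk2 had 36, 36.8 and 37.8 CPM in GR MUT Dex, 38.7, 44.1 and 41.4 CPM in GR MUT CTR, 14.9, 13.3 and 13.4 CPM in GR WT Dex and 28.9, 29.4 and 26.8 CPM in GR WT CTR, and differed by 0.86 ± 0.10. Lef1, a factor of the WNT pathway, differed by 0.98 ± 0.24 and was not called with unstranded counts (0.79, adjusted p = 0.127). Among 30 tested proliferation genes 3 were negative, Ccnd1, Rrm2 and Cdkn1c, and 0 positive, while 4 were negative and 4 positive without the libraries that stand apart. Cdkn1c, an inhibitor of the cell cycle, differed by -0.82 ± 0.22 and lost its call in 5 of 12 cases when 1 library was left out. Among 28 receptor chaperones, coregulators and hormone enzymes, 2 were negative and 1 positive, 4 and 3 without the libraries that stand apart. The share called was 10% of the proliferation genes and 10.7% of this last list, near the 6.99% of all tested genes.

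**Figure D4:**
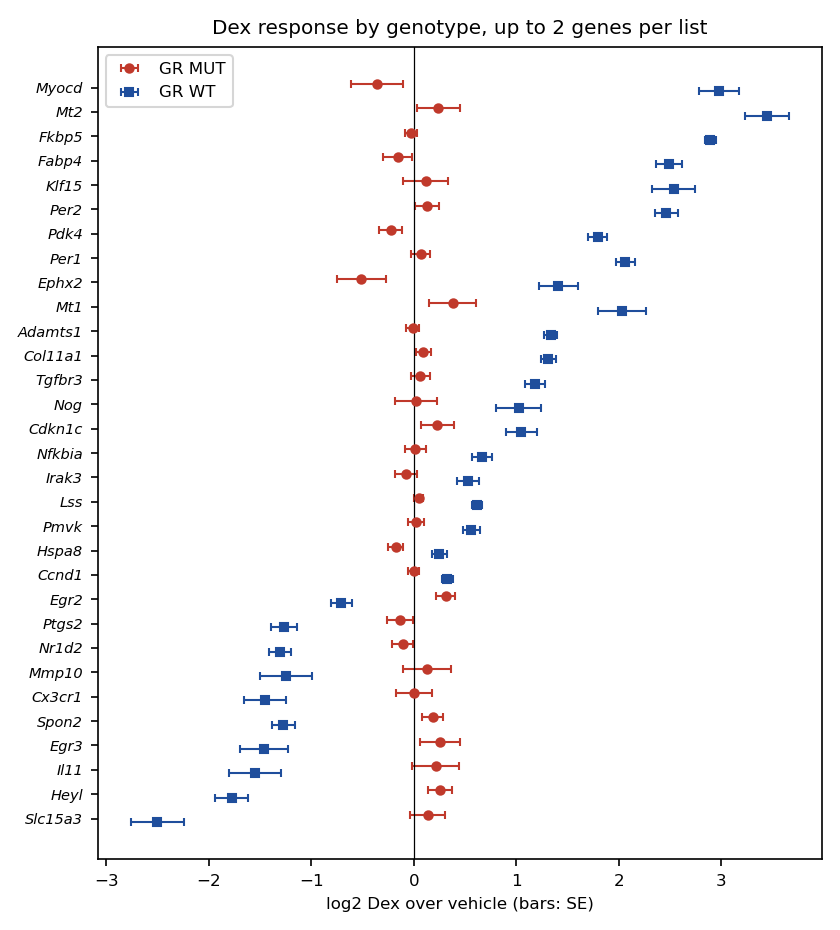
Log2 change with Dex of 31 called genes in GR MUT (circles) and GR WT (squares), with SE as bars. They are up to 2 per list, of those with an SE of the difference below 0.35. The values of GR MUT lie between -0.51 and 0.38 and those of GR WT between -2.50 and 3.45. The genes were chosen by their call on these same libraries, so the ranges are a description. Leaving out 1 library ended the call of Nog in 9 of 12 cases, of Mmp10 in 7 and of Cdkn1c in 5. Hspa8 and Irak3 lost theirs in 1 case each.

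A residual response of the mutant was looked for in its own libraries. Of the 1064 genes called in the difference, 123 had an unadjusted p below 0.05 in GR MUT by edgeR's quasi-likelihood test. Over all 15221 tested genes 1109 did. Of the 123 genes, 30 went in the direction of GR WT and 93 in the opposite one. The GR MUT libraries helped to choose these genes, and a call in the difference favours opposite directions. The count and the split are therefore a description. Zfp36, which encodes the mRNA decay factor tristetraprolin, had 44, 42.9 and 43.4 CPM in GR MUT Dex, 34.1, 35.1 and 31.3 CPM in GR MUT CTR, 63, 62.4 and 64.5 CPM in GR WT Dex and 37.2, 39.5 and 36.7 CPM in GR WT CTR. The Dex libraries lay above the vehicle libraries in both genotypes. The log2 was 0.37 ± 0.06 in GR MUT (unadjusted p = 9.21e-06, adjusted p = 0.14) and 0.74 ± 0.06 in GR WT, and the difference of -0.37 ± 0.09 was called (adjusted p = 0.0122). In the mutant Zfp36 was called when only the 12 libraries were fitted (adjusted p = 0.0255), without the libraries that stand apart (adjusted p = 3.03e-05) and by DESeq2 (adjusted p = 0.0037). Among the 12588 genes that the authors' deposited tables list for both genotypes, 3 were changed in the mutant at an adjusted p below 0.05. They were Zfp36 (0.00313), Egr1 (0.0441) and the long noncoding RNA 6720427I07Rik (0.0129).

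The other genes changed in the authors' table of the mutant went with and against the wild type. Egr1 had 132, 135 and 132 CPM in GR MUT Dex, 111, 116 and 112 CPM in GR MUT CTR, 86, 89.3 and 89.9 CPM in GR WT Dex and 105, 111 and 111 CPM in GR WT CTR. It was higher with Dex in the mutant and lower with Dex in the wild type, with a difference of 0.54 ± 0.07 (adjusted p = 1.67e-05). 6720427I07Rik was lower with Dex in both, by a log2 of -1.10 in GR MUT and -0.64 in GR WT, and its difference of -0.46 ± 0.29 was not called. Fos, the partner of Jun in AP-1, had 13.3, 13.1 and 14 CPM in GR MUT Dex, 9.69, 11.3 and 9.66 CPM in GR MUT CTR, 14.2, 13.8 and 13.7 CPM in GR WT Dex and 9.88, 9.65 and 10.6 CPM in GR WT CTR. The log2 with Dex was 0.41 ± 0.09 in GR MUT (unadjusted p = 0.000201, adjusted p = 0.568) and 0.47 ± 0.09 in GR WT (adjusted p = 0.000833). The 95% interval of its difference was -0.33 to 0.20. Fos is outside the rule for named genes and was picked after its values were seen, as were Zfp36 and 6720427I07Rik.

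Some genes were called in the difference though neither genotype's response was called alone, 16 with a negative and 24 with a positive value. S100a7a, a calcium-binding protein gene, had 0.743, 0.843 and 0.901 CPM in GR MUT Dex, 1.41, 1.38 and 1.35 CPM in GR MUT CTR, 0.924, 0.909 and 1.02 CPM in GR WT Dex and 0.665, 0.655 and 0.537 CPM in GR WT CTR. It was lower with Dex in the mutant and higher in the wild type, without overlap within a genotype, and differed by -1.35 ± 0.29 (adjusted p = 0.00393). Carmil2, Tmem151b, Zfp423, Ggn, March9 and Kcp had group means in the opposite order, with differences of 1.45, 1.45, 1.06, 0.99, 0.84 and 0.83. Leaving out 1 library ended the call of each of them in 6 to 10 of 12 cases. At the other end, 47 protein-coding genes had an absolute log2 of at least 1 in GR WT and no called difference. Spink8, a protease inhibitor gene, had 1, 4, 82 and 8 reads in GR MUT Dex, GR MUT CTR, GR WT Dex and GR WT CTR, and Klhl4 had 5, 7, 86 and 16. The difference of Spink8 was called when only the 12 libraries were fitted (adjusted p = 0.0338) and without the libraries that stand apart (adjusted p = 0.0185). No likeness of the genotypes is shown for either gene.

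Liver-type RNA varied among the libraries. Summed over 21 adult liver markers it was 48.7, 3.62 and 4.72 CPM in GR MUT Dex, 250, 40.7 and 45.3 CPM in GR MUT CTR, 42.1, 43.2 and 39.9 CPM in GR WT Dex and 109, 110 and 237 CPM in GR WT CTR. Alb, the serum albumin gene, had 22.9, 0.0843 and 0.0858 CPM in GR MUT Dex, 133, 15.4 and 17.7 CPM in GR MUT CTR, 15.9, 17.7 and 14.4 CPM in GR WT Dex and 45.9, 48.5 and 99.6 CPM in GR WT CTR. In GR WT all sums with Dex lay below those in vehicle. In GR MUT, Dex replicates 2 and 3 lay below all other libraries, with 12 and 13 of the 21 markers at 0, and Dex replicate 1 fell within the range of GR MUT CTR. Over the 21 tested markers the median log2 with Dex was -2.49 in GR MUT and -1.93 in GR WT, and the median difference was -0.85. Of these markers 0 were called in the difference by edgeR's quasi-likelihood test, in the full fit and in each fit that left out 1 library. By DESeq2 0 were called, and 1 had an unadjusted p below 0.05 in edgeR's test. A count of 0 did not hold in the fit less the 4 libraries with the most or least Alb RNA of their groups. That fit leaves 1 library in GR MUT Dex, so its calls are not counted here. With sums this far apart within groups, a lack of calls does not show a lack of change. C4bp, a complement regulator made in liver, had 0.219, 0 and 0 CPM in GR MUT Dex, 1.13, 0.285 and 0.253 CPM in GR MUT CTR, 1.37, 0.826 and 1.64 CPM in GR WT Dex and 0.522, 0.524 and 0.662 CPM in GR WT CTR. In GR MUT it was highest in CTR replicate 1 and at 0 in Dex replicates 2 and 3, as the liver sums were highest and lowest there, while in GR WT its Dex libraries lay above the vehicle libraries, opposite to the liver sums. Its difference of -4.22 ± 1.04 was called (adjusted p = 0.0105), and without GR MUT CTR replicate 1 it was not (adjusted p = 0.133).

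Sult1a1, a sulfotransferase, also had most of its vehicle reads in 1 library, 34 of 36 reads of GR MUT CTR in replicate 1. Its difference of -5.72 ± 1.19 was -3.05 with the 12 libraries less that one, and no longer called (adjusted p = 0.234). The GR WT response alone, 3.68 ± 0.66, was called (adjusted p = 0.000311). Aldh1a1 and Aldh1a7, retinaldehyde dehydrogenase paralogs, had 152 of 189 and 38 of 46 reads of GR MUT CTR in that library. In GR WT Dex they held 1306 and 1267 reads, against 36 and 16 in GR MUT Dex. How the counting split reads between these similar genes is uncertain. Both kept their call in every fit that left out 1 library, at differences of -4.93 ± 0.58 and -5.78 ± 0.69 in the full fit. The part of liver RNA in these results was not tested.

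The same response difference was taken in the 12 libraries given LPS for 6 h, with or without Dex, which share no library with the 12 above. There 1581 genes were called (10.4%), 765 negative (5.03%) and 816 positive (5.36%). Of the 669 genes negative without LPS, 633 had the same sign under LPS (94.6%) and 450 were also called (67.3%), with a median of -0.52. Of the 395 positive genes, 373 had the same sign (94.4%) and 251 were called (63.5%), with a median of 0.52. Without LPS the medians were -0.63 and 0.61, on the libraries that chose them. The share of all tested genes with the same sign in both sets is not given. The labels do not say whether the libraries with and without LPS came from the same embryos or cultures. All 24 libraries were fitted together. Fkbp5 differed under LPS by -2.69 ± 0.08, Per2 by -2.76 ± 0.16, Nr1d1 by 1.35 ± 0.10 and Ptgs2 by 1.65 ± 0.18. For Ptgs2 the levels under LPS were 889 CPM in GR MUT with Dex, 896 CPM in GR MUT without, 327 CPM in GR WT with Dex and 1033 CPM in GR WT without. Of the 5 libraries that stand apart, 4 belong to the LPS groups.

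**Figure D5:**
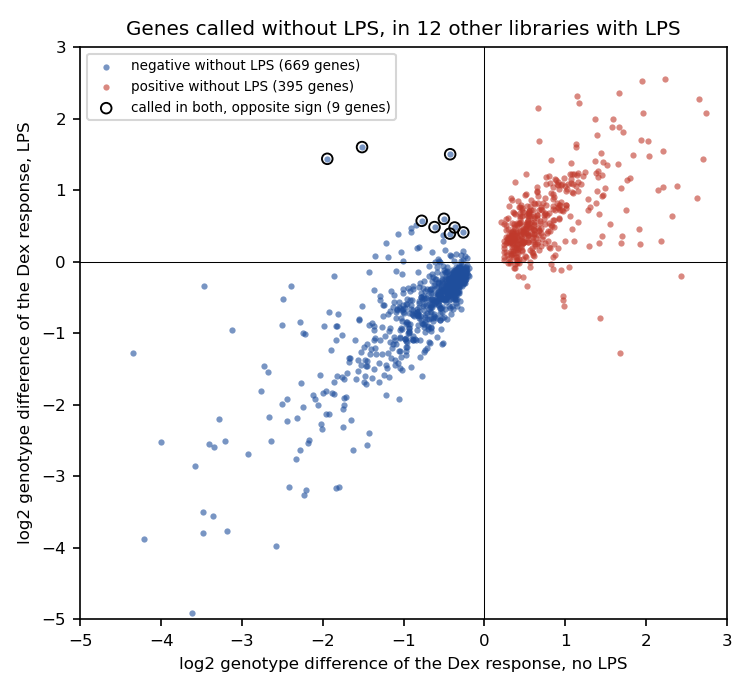
Log2 response difference under LPS (vertical axis) against that without LPS (horizontal axis) for the 1064 genes called without LPS. Negative genes lie mostly below 0 and positive ones mostly above 0, and circles mark the 9 genes called in both with opposite sign. Of the 1064 genes, 13 lie outside the axes.

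Genes called in both sets with opposite sign numbered 9, all negative without LPS and positive with it. Stat2, a transcription factor of interferon signalling, averaged 35.5, 38.4, 36.6 and 29.6 CPM in GR MUT Dex, GR MUT CTR, GR WT Dex and GR WT CTR, and differed by -0.42 ± 0.13. Under LPS it averaged 198 CPM in GR MUT with Dex, 175 CPM in GR MUT without, 45.8 CPM in GR WT with Dex and 115 CPM in GR WT without, and differed by 1.5 ± 0.12. Dex thus went with a higher wild-type level in vehicle and with a lower one under LPS. Cxcl1, a chemokine for neutrophils, differed by -0.78 ± 0.20 without and 0.57 ± 0.10 with LPS. The interferon-stimulated genes Oas1a, Trim30d and Ifi35 differed by -1.51 ± 0.42, -1.94 ± 0.34 and -0.50 ± 0.15 without LPS, and by 1.60 ± 0.23, 1.44 ± 0.22 and 0.60 ± 0.13 with it. The others were Egln3, Slco3a1, Mycl and Gfpt2. All 9 were named after their values were seen, and the change of the difference between the sets was not tested as such.

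The authors deposited a table for each genotype, with their own adjusted p-values for the Dex response without LPS. Among the 12588 genes listed in both, 1888 are below 0.05 in the wild type and 3 in the mutant. They include 1009 of the 1064 genes called in the response difference. Of these 1009 genes, 967 are below 0.05 in the wild type and 2 in the mutant. The same groups chose the 1064 genes, so these counts are a description.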

How the data were processed

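RNA of the 24 libraries was column-purified with DNase, and 500 ng entered the TruSeq Stranded mRNA kit, per the labels' protocols. The deposited counts are raw read counts per gene written by STAR, with 2.4.2 and 2.4.2a and build mm10 named in the submitters' processing notes; the annotation is not given in the sources used here. The reverse-strand count was used. It came to 19.5 to 53.1 M reads in the 12 vehicle and Dex libraries, and the other strand held 2.74 to 2.86%. Outside genes, 3.37 to 5.16% of reads were unmapped, 3.74 to 5.22% multimapped, 3.64 to 4.56% in no feature and 1.18 to 1.4% ambiguous, and these stayed out of library sizes. A floor of 3 reads is 0.0565 to 0.154 CPM, and intervals and floors cover counting error only. The authors' deposited tables of log2 fold changes and adjusted p-values were copied as they stand, and 96 columns of values per sample in whole-series tables were not used.

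Counts of 15221 genes that passed edgeR's filterByExpr, of 27088 with a read, were scaled by TMM and fitted with edgeR 4.0.16 in R 4.3.3 (robust quasi-likelihood, 1 coefficient for each of 8 groups, all 24 libraries). Log2 changes are given with SE, and p-values were adjusted by Benjamini and Hochberg with a threshold of 0.05. The procedure was tested on simulated data. Alternatives were DESeq2 1.42.0, other scaling and filters, a replicate block, other sets of libraries and each replicate left out. Deviations of same-numbered libraries had correlations of -0.125 to 0.303 over 18 pairs, and the libraries were not taken as paired. Between GR MUT Dex and GR MUT CTR these correlations were all positive, at 0.303, 0.055 and 0.145 for replicates 1 to 3. Gene positions are from GENCODE M21 for 15173 of the tested genes, and promoters from RefSeq on GRCm38.p6.

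Named genes are the 4 markers and Nr3c1, the 12 lowest and 12 highest differences among called protein-coding genes with at least 1 CPM in a group, up to 4 called members of each list and 2 called in GR WT alone, and the largest genes called in the difference alone or in GR WT alone. Members and lists were chosen with earlier results of these data known, and further list members were named for their roles after their values were seen.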

Additional observations from a re-analysis of the deposited data

Results flagged for a closer look

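The Dex response differed between the genotypes, by the test of the difference itself, for 669 genes with a lower and 395 genes with a higher response in GR MUT. The same test singled out each marker, with log2 differences of -2.92 for Fkbp5, -2.34 for Per2, 1.13 for Ptgs2 and 1.52 for Nr1d1.

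A further 8 genes were singled out because the difference was called while the response of neither genotype was called alone. The log2 difference was -4.22 for C4bp and -1.35 for S100a7a. It was 1.45 for Carmil2 and 1.45 for Tmem151b, 1.06 for Zfp423, 0.99 for Ggn, 0.84 for March9 and 0.83 for Kcp. For C4bp and the 6 genes with a positive value the call ended when single libraries were left out.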

How the results depend on the processing

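No called difference changed sign with a call under any alternative run. With only the 12 vehicle and Dex libraries fitted, 652 genes were higher and 1007 lower in the response difference, and 3 were called in GR MUT alone. Without the 5 libraries that stand apart the counts were 879 higher, 1312 lower, 4330 in GR WT, 5 in GR MUT, 4620 between the vehicle groups and 2970 under LPS. The next alternatives were added after seeing the data. The 12 libraries less GR MUT CTR replicate 1 gave 819 higher, 1224 lower, 4151 in GR WT, 4 in GR MUT and 4433 in vehicle. The 12 less the 4 with the most or least Alb RNA of their groups gave 3738 in GR WT and 2 in GR MUT; GR MUT Dex then has 1 library, which is assumed to vary like the other groups. DESeq2 called 3 genes in GR MUT. The cause was not tested. Leaving out 1 replicate at a time gave 302 to 403 higher, 551 to 619 lower, 1525 to 2093 in GR WT, 0 in GR MUT, 2238 to 2792 in vehicle and 1497 to 1766 under LPS. With the replicate block, 379 genes were higher, 635 lower, 1930 were called in GR WT, 0 in GR MUT, 2762 in vehicle and 1508 under LPS; the numbers were not taken to pair the libraries.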

Other observations

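Markers of other cell types were called in the response difference as follows: 0 lower and 1 higher of 9 tested endothelial markers, 0 and 1 of 4 epithelial, 1 and 1 of 15 cartilage and bone, 0 and 0 of 6 skeletal muscle, 1 and 0 of 9 nerve and glia, 0 and 2 of 13 leukocyte and 1 and 1 of 14 fibroblast markers. Over all tested genes 4.4% were lower and 2.6% higher. When 1 library was left out, the leukocyte list had 0 calls in 7 of 12 cases and the endothelial list in 10. The leukocyte genes Csf1r and Lyz2 each lost their call in 9 cases. Fewer cells of a type and less RNA per cell cannot be told apart in bulk samples. Between the vehicle groups, 2861 genes were called (18.8%). Of the 669 genes with a lower response in GR MUT, 156 were higher and 146 lower in GR MUT in vehicle. Of the 395 with a higher response, 84 were higher and 131 lower. Both comparisons use the same vehicle libraries, with opposite sign. That favours a higher vehicle level in GR MUT for genes with a lower response, and the reverse, so the split is a description. The 18.8% of all tested genes was not split by direction.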
